A study of Mus musculus with 10 samples.

Results

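This account covers the mouse genes for potassium, calcium, sodium and chloride channels in 2 kinds of sorted hepatic stellate cell (HSC) preparations. The members were all genes whose symbol begins with a channel family stem (Kcn, Cacn, Scn, Trp, Clcn, Ano, Piezo, P2rx, Hcn, Itpr or Ryr), with 1 inward rectifier gene of the Kcn stem left out of the rule. They numbered 199 of the 25233 rows with a gene symbol in a table of 62322 rows, and 193 of them encode channel subunits. The other 6 carry a channel-like symbol but encode no channel protein. Hypertrophied HSCs (hypHSC) came from C57BL/6J mice fed a choline-deficient, low-methionine, high-fat diet (CDAHFD), for 13 weeks in hypHSC 1 and 2 (mice 19 weeks old) and for 12 weeks in hypHSC 3, 4 and 5 (mice 18 weeks old). Quiescent HSCs (qHSC) came from C57BL/6J mice on standard diet, 36 weeks old for qHSC 1, 2 and 5 and 34 weeks old for qHSC 3 and 4. There were 5 preparations per group, all made by enzymatic digestion of the liver, a density gradient and fluorescence sorting, and kept for the quality of their RNA. The labels do not say whether each preparation came from its own mouse, so p-values measure the spread between these preparations. The groups also differed in age, in the enzyme amounts, in antibiotics (added for CDAHFD livers only) and in the sorting gate (green fluorescence for hypHSC, blue for qHSC), and these cannot be told apart from the diet.

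Ion channels are membrane proteins that open a selective pore to ions. Potassium channels hold the membrane at a negative voltage, voltage-gated calcium and sodium channels open on depolarization, inositol trisphosphate and ryanodine receptors release calcium from the endoplasmic reticulum, and calcium-activated chloride channels pass anions when cytosolic calcium rises. HSCs are contractile, vitamin A storing pericytes of the liver sinusoid, in which calcium release and membrane voltage are known to take part in contraction.

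Values are normalized counts, that is, reads scaled by 1 size factor per library. Each hypHSC library had 30534719 to 43283589 reads on symbol-bearing genes and each qHSC library 35640104 to 47317028, and 3 reads correspond to 2.49 to 4.54 normalized counts in hypHSC libraries and to 2.25 to 2.72 in qHSC libraries. Mitochondrial genes took 2.21% to 12.8% of the reads in hypHSC and 1.25% to 1.61% in qHSC. The labelled cell type was checked against marker lists. All 8 quiescent HSC markers were lower in hypHSC, and their summed level was 5834 to 16944 normalized counts in hypHSC against 687991 to 1307820 in qHSC. The sums of the 6 activated HSC markers overlapped (11802 to 40831 in hypHSC and 14822 to 42938.5 in qHSC). Of these, 2 were higher in hypHSC (Timp1 and Lox) and 1 was lower (Tagln), and Acta2, Col1a1 and Col3a1 were not called. All 12 macrophage markers were higher in hypHSC, with sums of 1156890 to 1682500 against 5964 to 127207, and none of the 12 was at 0 throughout either group. Within qHSC the macrophage sum was 55412 in qHSC 1 and 127207 in qHSC 4, against 5964 to 11894 in the other 3, and the Kupffer cell sum was 16617 and 37358 in those libraries against 1058 to 1620. Of the 5 neutrophil markers, the 3 tested (S100a8, S100a9 and Csf3r) were also higher (list sums 1788 to 7753 in hypHSC and 10.5 to 391.9 in qHSC). Ly6g and Mpo were too low to test, with at most 13.6 and 8.09 normalized counts in any library. Also higher were 3 of 3 tested cholangiocyte markers (436 to 2711 and 4.72 to 56.1), 2 of 2 tested mesothelial markers (1543 to 6736 and 179 to 312) and 3 of 3 tested portal fibroblast markers (201 to 2078 and 35.2 to 187). Krt7, Msln, Upk3b, Pi16 and Thy1 of these lists were not tested. The hepatocyte sums overlapped (8535 to 75089 and 15980 to 59938), and none of the 4 tested hepatocyte markers was called. The part of these marker levels in the channel results below was not tested. In bulk RNA a smaller number of cells of a type and less RNA per cell cannot be told apart.

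**Figure D1:**
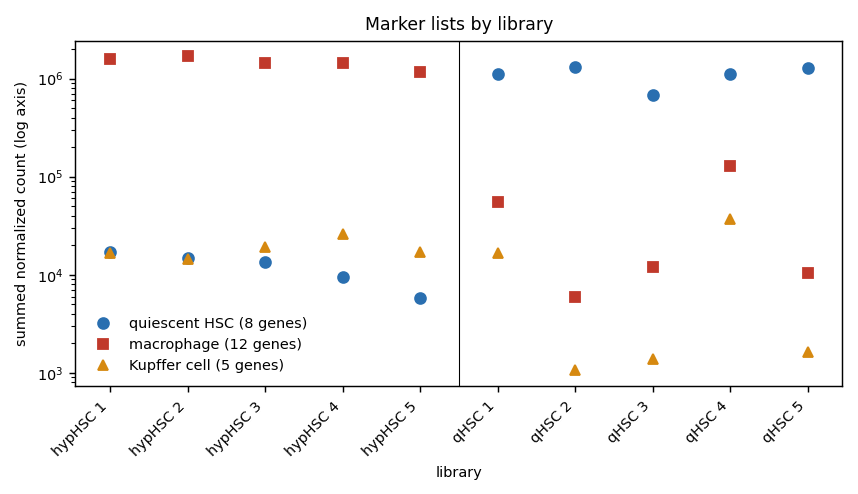
Summed normalized counts (log axis) of the quiescent HSC, macrophage and Kupffer cell marker lists in each of the 10 libraries. The macrophage sum is at least 1156890 in every hypHSC library and at most 127207 in qHSC, where qHSC 1 and 4 stand above the other 3.

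Channel genes moved in both directions between hypHSC and qHSC, and more of them were lower than higher. A gene was tested when 5 or more of the 10 libraries each held 10 or more normalized counts, and called when limma on log2(normalized count + 1) gave an adjusted p of at most 0.05 (Benjamini-Hochberg) and a log2 fold change of at least 1 in size. Of the 199 members, 47 had no read in any library, 121 were too low to test and 78 were tested. Of these 78, 16 were higher in hypHSC (20.5%, against 17.8% of all 14630 genes tested), 28 were lower (35.9%, against 21.7%), and 34 were not called. The groups did not overlap for 46.2% of the tested members, against 39.5% of all genes tested. The median log2 fold change was -0.36 over the tested members and -0.20 over all genes tested. Among the tested members, 5 passed the filter only through hypHSC (Kcne3, Kcnn4, Ryr1, Kcnab2 and Scn7a) and 7 only through qHSC (Ano2, Kcnt2, Cacnb2, Kcnj5, P2rx1, Trpm6 and Kcnk2), so the filter fixed the direction of these 12. Without such genes, 11 of 66 members were higher (16.7%, against 16.9% of 14241 genes) and 21 were lower (31.8%, against 20.97%). Scaling the libraries to Hprt, Pgk1 and Actb shifted the median of all genes by -0.94. It gave 10 higher and 37 lower of 81 members tested, so that 21.3% of the calls were higher in place of 36.4%. Over all 14675 genes tested with this scaling, 1472 were higher and 7020 lower, against 2602 and 3177 of 14630 in the main fit. The shift was thus one of all genes, and no excess of lower channel genes is read from it.

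By class, the 28 tested potassium channel genes held 7 that were higher and 11 that were lower. The 10 tested voltage-gated calcium channel genes held 2 and 4, the 5 sodium channel genes 1 and 3, the 15 TRP, Piezo and P2X genes 4 and 4, the 4 calcium release genes 1 and 1, and the 13 chloride channel and anoctamin genes 1 and 4. The share that was higher was 20% to 26.7% in the first 5 of these classes and 7.69% in the last, against 17.8% of all genes tested, and the share that was lower was 25% to 60%, against 21.7%. The higher shares of those 5 classes lie near the background, and with 4 to 28 tested genes per class single genes move every share. These counts include the 12 members whose direction the filter fixed. Among them are the sodium channel rise (Scn7a), the calcium release rise (Ryr1) and Kcne3, Kcnn4 and Kcnab2 of the potassium rises. The voltage-gated potassium (Kv) pore genes were the family with the most untested members, 34 of 40.

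Some calls rested on the test or scaling used. With edgeR on read counts recovered from the deposited values, Cacna1f, Cacna1s, Hcn3, Kcnip3, Kcnj10, Kcnmb1 and Kcnu1 were no longer called and Piezo1 was called. With DESeq2 on the same reads, Hcn3, Kcnj10 and Kcnu1 were no longer called, and Cacna1d, Itpr3 and Piezo1 were. With the hypHSC libraries at 12 weeks only, Cacna1s, Clcn7, Hcn3, Kcnj10 and Kcnu1 were no longer called, Kcnq1ot1 was called higher, and Ano4, Clcn2, Clcn4, Kcnd1, P2rx6 and Trpc2 were called lower, which gave 14 higher and 32 lower members. Over all 14630 genes tested, that fit gave 2409 higher and 3528 lower. Scaling to Hprt, Pgk1 and Actb ended the calls of Cacna1s, Clcn7, Kcnj10, Kcnk6, P2rx4 and Trpv2, and Ano6, Clcn2, Clcn4, Itpr2, Kcnd1, Trpc2, Trpc4ap and Trpm4 were called lower. Testing against the fold threshold itself (limma treat) ended these same 6 and those of Ano10, Cacna1a, Hcn3, Kcnip3, Kcnmb1 and Piezo2.

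**Figure D2:**
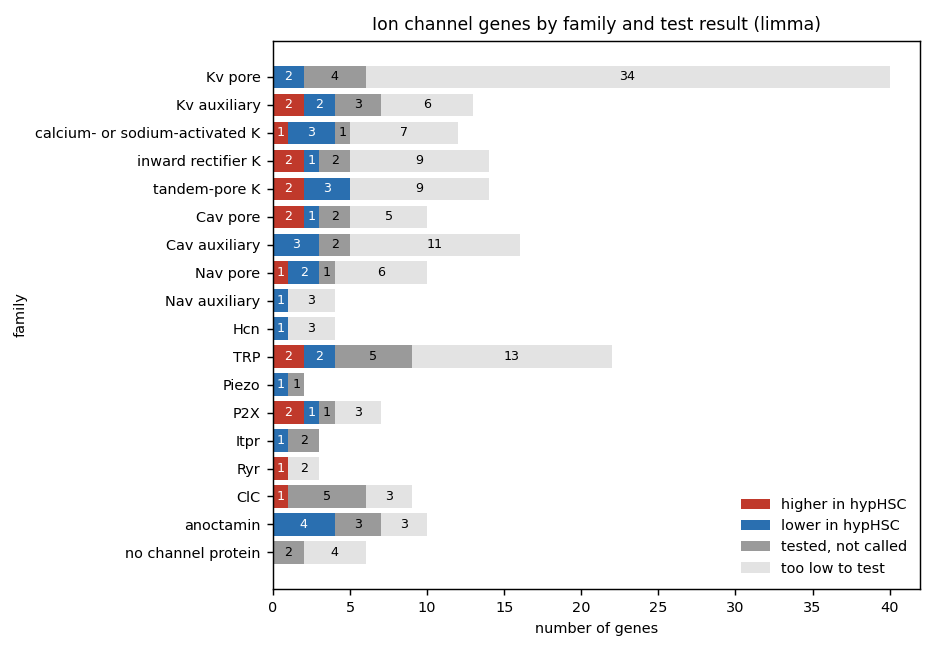
Number of member genes in each family that were higher in hypHSC, lower, tested and not called, or too low to test. The anoctamin (4 of 7 tested) and voltage-gated calcium auxiliary (3 of 5 tested) families hold lower calls and no higher call. Over all genes tested, 21.7% were lower and 17.8% higher. Of the 40 Kv pore genes, 34 are untested.

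**Figure D3:**
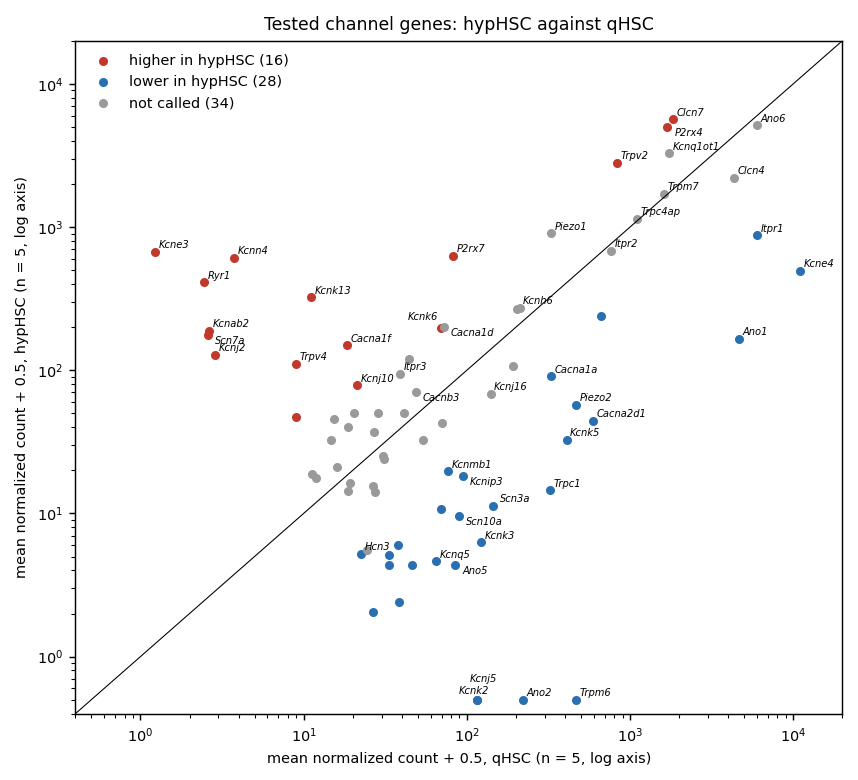
Mean normalized count plus 0.5 of the 78 tested members in hypHSC (vertical) against qHSC (horizontal), both log axes, 5 libraries per group. Red points were called higher in hypHSC (16), blue lower (28) and grey not called (34), and 4 genes lie on the lower edge with all hypHSC libraries at 0.

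The start regions of the members with the 2 largest rises and the 2 largest falls are shown because these genes were near absent in one group and present in every library of the other. Kcne3, Kcnn4, Trpm6 and Ano2 each passed the filter through 1 group only, so the filter fixed the direction of their change. RefSeq promoters (build GRCm38.p6) were matched letter for letter to GRCm39, and each line gives the 250 bases before the start, 5′ to 3′ on the gene's strand. Capitals mark matches, on either strand, to any of 5 words. GAGGAAGT is bound by the myeloid factor Spi1. The E-box was searched as CACGTG. For AP-1 the word was TGAGTCA. LIM homeobox factors were given TAATTA, and GATA factors were given the word AGATAA. These words were chosen after the values were seen, and no word contains another. The windows lie at chr7:99825627-99825876 (Kcne3), chr7:24069438-24069687 (Kcnn4), chr19:18726844-18727093 (Trpm6) and chr6:125667132-125667381 (Ano2), all on the plus strand. Trpv2 (chr11:62465062-62465311, plus strand) is added because it was the only higher member whose window held GAGGAAGT.
Kcne3: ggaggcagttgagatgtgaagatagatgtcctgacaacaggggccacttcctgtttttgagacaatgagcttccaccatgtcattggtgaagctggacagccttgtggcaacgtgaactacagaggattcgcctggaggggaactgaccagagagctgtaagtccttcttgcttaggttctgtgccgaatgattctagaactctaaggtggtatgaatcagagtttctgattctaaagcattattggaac
Kcnn4: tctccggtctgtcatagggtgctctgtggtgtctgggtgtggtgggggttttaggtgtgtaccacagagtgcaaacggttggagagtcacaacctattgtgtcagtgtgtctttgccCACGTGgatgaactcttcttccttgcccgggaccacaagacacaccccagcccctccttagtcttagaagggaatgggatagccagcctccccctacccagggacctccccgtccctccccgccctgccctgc
Trpm6: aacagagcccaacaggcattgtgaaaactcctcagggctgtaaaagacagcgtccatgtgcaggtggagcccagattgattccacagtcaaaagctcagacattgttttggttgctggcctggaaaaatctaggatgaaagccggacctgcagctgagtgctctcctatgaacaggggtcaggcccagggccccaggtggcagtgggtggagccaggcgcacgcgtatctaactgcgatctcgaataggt
Ano2: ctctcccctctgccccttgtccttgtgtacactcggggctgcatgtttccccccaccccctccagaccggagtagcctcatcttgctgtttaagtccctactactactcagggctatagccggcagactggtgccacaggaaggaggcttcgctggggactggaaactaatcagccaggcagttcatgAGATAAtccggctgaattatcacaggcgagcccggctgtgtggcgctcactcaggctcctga
Trpv2: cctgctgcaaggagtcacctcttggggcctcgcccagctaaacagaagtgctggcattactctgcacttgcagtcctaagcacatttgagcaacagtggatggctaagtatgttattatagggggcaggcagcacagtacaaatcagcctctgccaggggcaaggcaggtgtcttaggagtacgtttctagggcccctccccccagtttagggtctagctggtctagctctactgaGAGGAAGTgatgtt

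The Kcnn4 window held 1 E-box, the Ano2 window 1 GATA word and the Trpv2 window the Spi1 word, and the Kcne3 and Trpm6 windows held none of the 5 words. The promoter table had an entry for 64 of the 78 tested members. GAGGAAGT was in 2.44% of all 32851 promoters, in 2 of 22 promoters of higher members (both of Trpv2, from overlapping windows), in 0 of 29 of lower members and in 1 of 48 of members not called (Ano6). CACGTG was in 6.02% of all promoters and in 3 of 22, 1 of 29 and 6 of 48 in these 3 sets, the higher members being Clcn7, Kcnj2 and Kcnn4. TGAGTCA stood in 4.46% of all promoters and in 1, 2 and 0 of the sets, AGATAA in 9.99% and in 2, 3 and 2, and TAATTA in 4.84% and in none of them.

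The calcium-activated potassium channel gene Kcnn4 rose from near absence. Of the 5 tested genes of the calcium- or sodium-activated family, 1 was higher and 3 were lower, where 17.8% of all genes tested were higher and 21.7% lower. Kcnn1 was not called (log2 fold change -1.94, adjusted p = 0.19). Kcnn4 encodes the intermediate-conductance channel that calcium opens through calmodulin and that is known from lymphocytes and macrophages. It had 718, 609, 566, 529 and 616 normalized counts in hypHSC 1 to 5, and 2.72, 0, 0, 6.85 and 6.74 in qHSC 1 to 5. The hypHSC libraries lay close together and far above every qHSC library (log2 fold change 7.68 ± 0.66 (SE), adjusted p = 4.7e-06). Kcnn4 passed the filter through hypHSC alone. Kcnmb1, the beta subunit of the large-conductance channel known from smooth muscle, had 21.6, 31.1, 18.3, 25.2 and 0 normalized counts in hypHSC and 71.5, 37.5, 113, 53.9 and 106 in qHSC. The groups did not overlap (log2 fold change -2.46 ± 0.90 (SE), adjusted p = 0.041), but the call was lost without hypHSC 3 or without qHSC 1, 3, 4 or 5, with an adjusted p of up to 0.088, and without qHSC 1 and 4 together (adjusted p = 0.11). It was also lost with a pseudocount of 0.5 or with no filter. The sodium-activated channel gene Kcnt2 (log2 fold change -4.20 ± 0.73 (SE), adjusted p = 0.000703) and the sperm channel gene Kcnu1 (log2 fold change -3.82 ± 1.02 (SE), adjusted p = 0.0097) also fell, from means of 38.1 ± 16.04 and 32.7 ± 22.6 normalized counts in qHSC (SD, n = 5). Kcnt2 passed the filter through qHSC alone. Kcnma1, the pore of the large-conductance channel, was too low to test, with 121, 4.14, 79.8, 8.39 and 0 in hypHSC and 0 in every qHSC library.

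Among the Kv auxiliary subunits, which attach to voltage-gated pores and alter their gating, Kcne3 and Kcnab2 rose and Kcne4 and Kcnip3 fell. Kcne3 had 1343, 673, 258, 501 and 569 normalized counts in hypHSC, while qHSC 1 had 3.62 and the other 4 qHSC libraries had 0. The groups were far apart (log2 fold change 8.74 ± 0.61 (SE), adjusted p = 1.1e-06), and the gene passed the filter through hypHSC alone. Kcne4, of the same single-span family, had 608, 416, 523, 690.3 and 245 in hypHSC against 11018, 7199, 7799.8, 14167 and 15119 in qHSC. The lowest qHSC library was far above the highest hypHSC library (log2 fold change -4.50 ± 0.31 (SE), adjusted p = 9.7e-07). Kcnab2, the oxidoreductase-like beta subunit, rose to 172, 247, 267, 183 and 68.1 from at most 8.15 in qHSC (log2 fold change 6.41 ± 0.74 (SE), adjusted p = 4.1e-05). It too passed the filter through hypHSC alone. Kcnip3, a calcium-binding Kv partner that is also a transcriptional repressor, had 18.9, 57.97, 11.6, 0 and 0 in hypHSC and 57.9, 101, 99.2, 119 and 92.9 in qHSC. It fell (log2 fold change -3.76 ± 1.08 (SE), adjusted p = 0.014), with hypHSC 2 just above the lowest qHSC library. Without qHSC 1 and 4 this call was lost (adjusted p = 0.055), an alternative added after the data were seen.

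Kv pore genes were sparse in both groups. Of the 40 genes, 15 had no read in any library and 6 were tested, of which 2, Kcnq5 among them, were lower and none was higher. The shares over all genes tested were 21.7% lower and 17.8% higher. Kcnq5, a pore of the slowly activating M current, had 4.04, 16.6, 0, 0 and 0 normalized counts in hypHSC and 37.1, 86.9, 37, 83 and 77.9 in qHSC (log2 fold change -4.64 ± 0.87 (SE), adjusted p = 0.0011). Kcnh6, the tested Kv pore gene with the highest mean, had 271 ± 86.6 in hypHSC and 210.0 ± 31.1 in qHSC and was not called (log2 fold change 0.32, adjusted p = 0.38), and its sign turned to -0.04 when libraries were scaled to the same total. Kcna3, the Kv channel known from lymphocytes, was too low to test, at 104, 4.14, 38.2, 3.15 and 24.2 in hypHSC and 0 throughout qHSC.

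Inward rectifiers, which pass potassium most readily near the resting voltage, split by gene. Kcnj2 had 108, 212, 128, 118 and 74.1 normalized counts in hypHSC, and 0, 0, 0, 11.1 and 0.75 in qHSC, where qHSC 4 stood above the rest (log2 fold change 6.05 ± 0.75 (SE), adjusted p = 6.8e-05). Kcnj10, the glial and epithelial rectifier, had 95.7, 19.7, 89.8, 112 and 72.6 in hypHSC and 39.8, 0, 0, 63.3 and 0 in qHSC, so that the only qHSC libraries with reads were qHSC 1 and 4 and both lay above hypHSC 2. Its call (log2 fold change 3.83 ± 1.30 (SE), adjusted p = 0.0304) was lost without any 1 of hypHSC 1, 3 or 4 or qHSC 2, 3 or 5, with an adjusted p of up to 0.074. Kcnj16, the usual partner of Kcnj10, showed the same split within qHSC, with 223, 13.6, 8.66, 442 and 8.99 against 5.39, 133, 121, 61.9 and 19.7 in hypHSC. It was not called (log2 fold change -0.01, adjusted p = 0.99), and without qHSC 1 and 4 its log2 fold change was 1.91 (adjusted p = 0.18). These are the qHSC libraries with the highest Kupffer cell and macrophage marker sums given above. Kcnj5, a G protein gated rectifier, had no read in any hypHSC library and 309.5, 118, 37.8, 78.7 and 26.97 normalized counts in qHSC. Set against 3 reads per hypHSC library, it was at least 32.9-fold lower (adjusted p = 2.9e-05), and at least 18.8-fold lower without qHSC 1, the highest library. Kcnj5 passed the filter through qHSC alone.

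The tandem-pore potassium channels, which carry the background leak, all passed the threshold where they could be tested, 2 higher and 3 lower. Over all genes tested, 17.8% were higher and 21.7% lower. Kcnk13 had 322, 330.2, 395, 359.8 and 201 normalized counts in hypHSC and 6.34, 5.11, 1.57, 40.2 and 0 in qHSC (log2 fold change 5.86 ± 0.83 (SE), adjusted p = 0.00017). The groups were far apart, and qHSC 4 was again the highest qHSC library. Kcnk6 rose less, from 70.6, 46.01, 69.3, 101 and 55.5 in qHSC to 282, 254, 175, 136 and 144 in hypHSC, without overlap (log2 fold change 1.51 ± 0.35 (SE), adjusted p = 0.00403). With libraries scaled to Hprt, Pgk1 and Actb its log2 fold change was 0.58 (adjusted p = 0.14). The stretch-sensitive Kcnk2 had 0 in every hypHSC library and 141, 74.98, 157, 67.6 and 133 in qHSC, at least 33.1-fold lower (adjusted p = 1.6e-06). It passed the filter through qHSC alone. The acid-sensitive Kcnk3 had 2.7, 1.04, 0, 25.2 and 0 in hypHSC against 105, 84.3, 37, 149.8 and 236 in qHSC (log2 fold change -5.18 ± 0.92 (SE), adjusted p = 0.000799). Kcnk5, which alkaline pH opens, had 63.3, 63.1, 3.33, 30.4 and 0 against 434, 575, 276, 399.6 and 354 (log2 fold change -4.81 ± 1.05 (SE), adjusted p = 0.0031). Exons of other genes, most of all A430027H14Rik, cover 14.6% of the Kcnk2 exon bases. The libraries keep no strand, so reads there can belong to any of these genes.

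**Figure D4:**
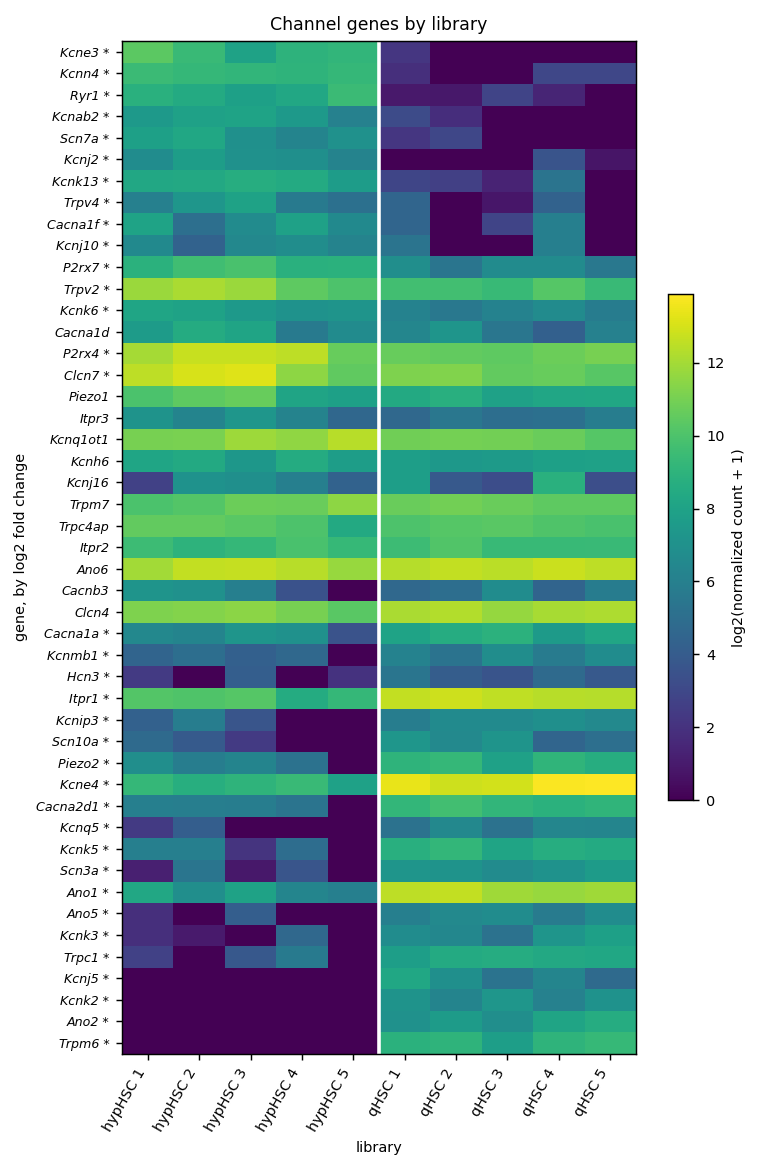
Log2(normalized count + 1) of 47 named and tested members (rows, by log2 fold change) in the 10 libraries (columns), with an asterisk on called genes. The white line parts hypHSC from qHSC, and Kcnj10, Cacna1f and Kcnj16 are brighter in qHSC 1 and 4 than in the other qHSC libraries.

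Among the 10 tested voltage-gated calcium channel genes, 3 auxiliary subunit genes and the pore gene Cacna1a fell, and 2 L-type pore genes rose. Over all genes tested, 21.7% were lower and 17.8% higher. Cacna2d1, the alpha2delta subunit that carries pores to the surface and binds gabapentin, had 61.99, 60.04, 58.2, 39.9 and 0 normalized counts in hypHSC and 583, 813, 554, 471 and 536 in qHSC. The groups were far apart, and hypHSC 5 had no read (log2 fold change -4.56 ± 1.02 (SE), adjusted p = 0.0035). The beta subunits Cacnb1 (log2 fold change -3.36, adjusted p = 0.0072) and Cacnb2 (log2 fold change -3.49, adjusted p = 0.0016) also fell, without overlap, from qHSC means of 37.5 ± 13.6 and 25.99 ± 18.4. Cacnb2 passed the filter through qHSC alone. Cacnb3 had 146, 131, 63.2, 10.5 and 0 in hypHSC and 24.4, 31.5, 106, 21.4 and 56.95 in qHSC and was not called (log2 fold change -0.60, adjusted p = 0.72), and edgeR on recovered reads gave the opposite sign (0.55). Of the pores, the P/Q-type gene Cacna1a had 88.9, 76.6, 148, 128 and 10.6 in hypHSC against 269, 391.9, 484, 189 and 292 in qHSC and fell without overlap (log2 fold change -2.17 ± 0.64 (SE), adjusted p = 0.015). Cacna1f, known from photoreceptors and blood cells, had 267, 33.1, 103, 242 and 96.8 against 21.7, 0, 6.3, 61.6 and 0, with qHSC 4 and qHSC 1 again the highest of their group and qHSC 4 above hypHSC 2 (log2 fold change 4.21 ± 1.17 (SE), adjusted p = 0.011). Cacna1s, the voltage sensor of skeletal muscle, had 115, 34.2, 14.97, 43.01 and 27.2 against 28.1, 0, 4.72, 5.13 and 4.5 (log2 fold change 2.76 ± 0.87 (SE), adjusted p = 0.022), and this call was lost without hypHSC 1, the highest library (log2 fold changes of 2.14 to 3.35 with each library left out). Cacna1d, another L-type pore, had 197, 369, 274, 51.4 and 103 against 81.5, 147, 42.5, 17.97 and 68.9 and was not called (log2 fold change 1.46, adjusted p = 0.087). Without hypHSC 4 it was called (1.86, adjusted p = 0.032).

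Sodium channel genes changed with Scn7a on one side and Scn3a and Scn10a on the other. Scn7a encodes the extracellular sodium sensor that does not open with voltage. It had 237, 306, 123.1, 75.5 and 130.1 normalized counts in hypHSC and 3.62, 6.82, 0, 0 and 0 in qHSC, a clear gap between the groups (log2 fold change 6.25 ± 0.74 (SE), adjusted p = 4.9e-05). Scn7a passed the filter through hypHSC alone. Scn3a, an action potential pore of the developing brain, had 1.35, 40.4, 0.83, 11.5 and 0 in hypHSC and 151, 137, 104, 136 and 193 in qHSC (log2 fold change -4.93 ± 0.92 (SE), adjusted p = 0.0012). Scn10a, the pore known from pain-sensing neurons, had 26.9, 14.5, 4.16, 0 and 0 and 155, 90.3, 145, 22.2 and 32.97, with hypHSC 1 inside the qHSC range (log2 fold change -3.90 ± 1.04 (SE), adjusted p = 0.0094). Hcn3, the only tested pacemaker channel gene, was at 4.04, 0, 16.6, 0 and 3.02 and 41.6, 16.2, 11.02, 27.4 and 13.5 and carried a weak call (log2 fold change -2.66 ± 0.86 (SE), adjusted p = 0.025). That call was lost without hypHSC 2 or 4 or qHSC 1 or 4 (adjusted p up to 0.065), without qHSC 1 and 4 together (adjusted p = 0.15) and without hypHSC 4 and 5 (adjusted p = 0.068). Exons of other genes, most of all Pklr, cover 25% of the Hcn3 exon bases.

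Of the calcium release channels, the inositol trisphosphate receptor gene Itpr1 fell and the ryanodine receptor gene Ryr1 rose. Itpr1 had 1141, 1087, 1181, 372 and 603 normalized counts in hypHSC and 6188, 7145, 5970.1, 5364 and 5270.5 in qHSC. It was the sixth highest tested member per kilobase in qHSC, and all qHSC libraries lay above all hypHSC libraries (log2 fold change -2.89 ± 0.31 (SE), adjusted p = 2.2e-05). Itpr2, the calcium-sensitive receptor of hepatocytes and other cells, had 721, 502, 599, 957 and 626 and 734, 1095, 657, 648 and 687, with groups that overlapped and no call (log2 fold change -0.17, adjusted p = 0.56). Itpr3 had 139, 74.5, 157, 73.4 and 24.2 and 24.4, 45.2, 31.5, 34.2 and 57.7 and was not called either (log2 fold change 1.06, adjusted p = 0.12), although without hypHSC 5 its log2 fold change was 1.48 (adjusted p = 0.011). Ryr1, the release channel of skeletal muscle, had 441, 361, 232, 324 and 697 in hypHSC and 0.91, 0.85, 6.3, 1.71 and 0 in qHSC. No qHSC library had more than 6.30, far below every hypHSC library (log2 fold change 7.36 ± 0.58 (SE), adjusted p = 2.6e-06). Ryr1 passed the filter through hypHSC alone. Ryr2, the cardiac receptor, had at most 1.66 normalized counts in any library, and Ryr3 was too low to test, at 0, 0, 3.33, 0 and 7.56 in hypHSC and 14.5, 16.2, 10.2, 3.42 and 7.49 in qHSC.

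Among the TRP channels, cation channels gated by heat, lipids, stretch or other signals, Trpm6 and Trpc1 fell and Trpv2 and Trpv4 rose. Trpm6, a magnesium-permeable channel with its own kinase domain, had 0 in every hypHSC library and 471, 512, 223, 513 and 626 normalized counts in qHSC, at least 135-fold lower (adjusted p = 1.5e-07). Trpm6 passed the filter through qHSC alone. Its close relative Trpm7 had 998, 1169, 1745, 1671 and 2952 in hypHSC and 1669.9, 1964, 1704, 1375 and 1408 in qHSC and did not pass the test (log2 fold change -0.02 ± 0.27, adjusted p = 0.95), with a sign that turned under 5 alternatives and without hypHSC 1 or 2 or qHSC 2. Trpc1 had 5.39, 0, 13.3, 51.4 and 0 in hypHSC, highest in hypHSC 4, and 217, 354, 392.1, 334 and 306 in qHSC (log2 fold change -5.86 ± 1.001 (SE), adjusted p = 0.00062). Trpv2, a channel known from macrophages, had 3541, 4489, 3584, 1375 and 1036 in hypHSC and 829, 834, 645, 1191 and 680.4 in qHSC. The first 3 hypHSC libraries were far above qHSC, whereas hypHSC 5 lay below qHSC 4 (log2 fold change 1.56 ± 0.40 (SE), adjusted p = 0.0076). Scaled to Hprt, Pgk1 and Actb it had a log2 fold change of 0.62 (adjusted p = 0.076). Trpv4, which responds to cell swelling and warmth, had 64.7, 154, 250.3, 51.4 and 33.3 against 21.7, 0, 0.79, 19.7 and 0, without overlap (log2 fold change 4.48 ± 1.06 (SE), adjusted p = 0.0048). Trpm2, opened by ADP-ribose under oxidative stress, was at 112, 187, 161, 102 and 30.2 in hypHSC and 47.1, 19.6, 25.98, 124 and 1.5 in qHSC. It was not called (log2 fold change 2.07, adjusted p = 0.087), and it was called without hypHSC 5 or without qHSC 4 (log2 fold changes of 1.26 to 2.67 over the 10 fits). Trpc2 shares its row in the deposited table with Xndc1, and exons of other genes, most of all the readthrough gene Xntrpc, cover all of its exon bases. It was not called (log2 fold change -1.35, adjusted p = 0.15).

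Of the Piezo channels, which open when the membrane is stretched, Piezo2 fell. It had 115, 59.01, 74.8, 36.7 and 0 normalized counts in hypHSC and 531, 603, 242, 545 and 402 in qHSC, without overlap (log2 fold change -3.94 ± 1.09 (SE), adjusted p = 0.012), and without qHSC 1 and 4 the call was lost (adjusted p = 0.062). Piezo1 had 979.6, 1388, 1629, 280.1 and 239 in hypHSC and 351, 434, 241, 296 and 312 in qHSC. In hypHSC 1, 2 and 3 it was above every qHSC library and in hypHSC 4 and 5 within or below the qHSC range, and it was not called (log2 fold change 1.09, adjusted p = 0.11). Leaving out hypHSC 4 and 5 together gave 2.02. That alternative was added after the data were seen and removes the libraries in which Piezo1 was low, so it cannot test a rise. Piezo1 was called without hypHSC 5 alone (1.47, adjusted p = 0.019) or without hypHSC 4 alone (1.41, adjusted p = 0.045). Exons of other genes, most of all Ctu2, cover 39.5% of the Piezo1 exon bases.

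The ATP-gated P2X receptors P2rx4 and P2rx7, both known from macrophages and microglia, rose. P2rx7 had 464, 792, 952, 453 and 473 normalized counts in hypHSC and 113, 41.8, 105, 102 and 45.7 in qHSC, without overlap (log2 fold change 2.98 ± 0.38 (SE), adjusted p = 8.4e-05). P2rx4 had 4152, 6619, 6737, 5881 and 1641 against 1627, 1516, 1389.6, 1755 and 2137. Only hypHSC 5 fell within the qHSC range (log2 fold change 1.42 ± 0.35 (SE), adjusted p = 0.0065), and scaling to Hprt, Pgk1 and Actb ended the call (log2 fold change 0.48, adjusted p = 0.16). P2rx1, known from smooth muscle and platelets, went the other way, from a mean of 32.8 ± 9.96 in qHSC to 3.86 ± 5.29 in hypHSC (log2 fold change -3.67 ± 0.86 (SE), adjusted p = 0.0046), and P2rx6 was not called (log2 fold change -1.54, adjusted p = 0.301). P2rx1 passed the filter through qHSC alone.

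**Figure D5:**
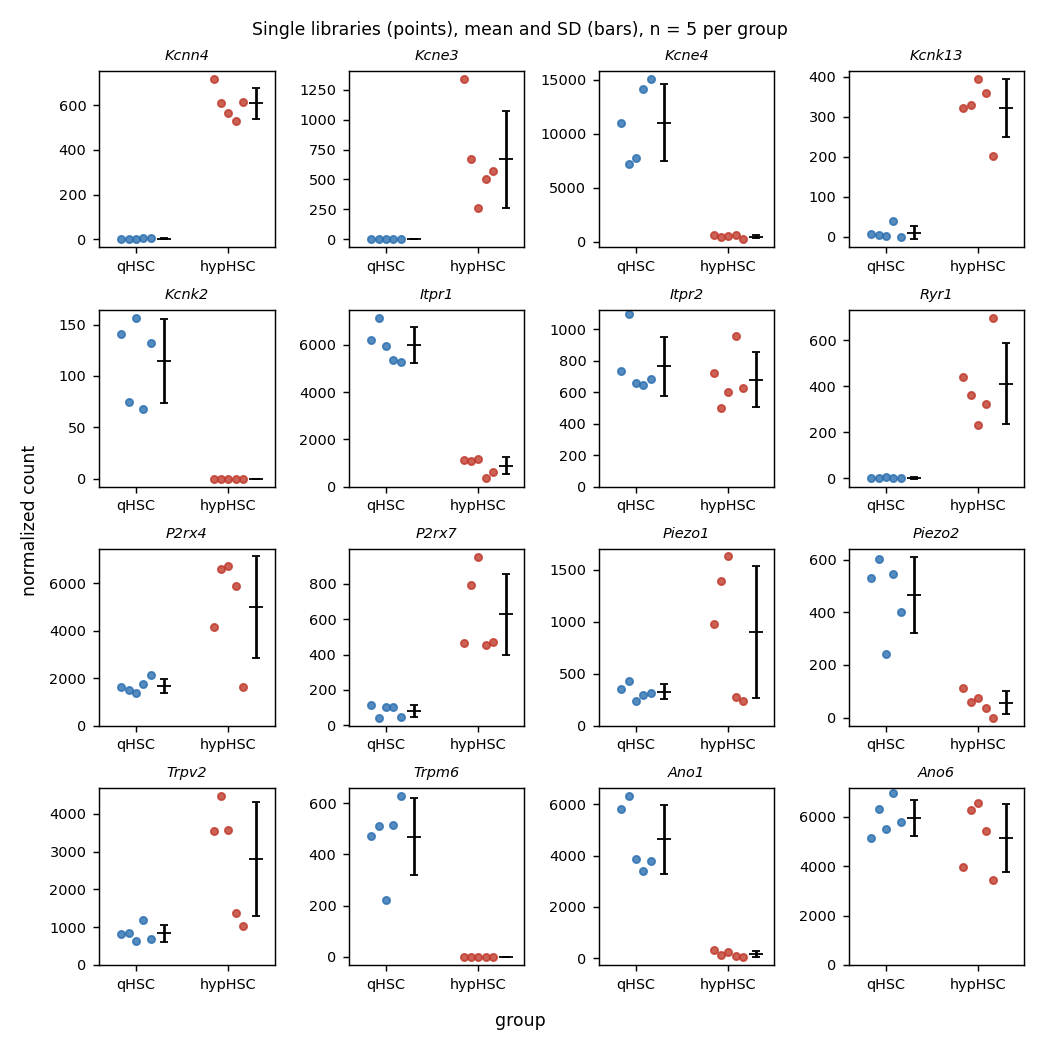
Normalized counts of 16 members in single libraries (points, 5 per group), with the group mean and SD (bars), each panel on its own linear axis. The groups stand apart in every library for Kcnn4, Kcne3, Kcne4, Kcnk13, Kcnk2, Itpr1, Ryr1, P2rx7, Piezo2, Trpm6 and Ano1, and overlap for Itpr2, Ano6, Piezo1, P2rx4 and Trpv2.

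Of the 7 tested anoctamins, 4 were lower and none was higher, where 21.7% of all genes tested were lower and 17.8% higher. Ano1, the calcium-activated chloride channel of smooth muscle and epithelia, had 314, 117, 250.3, 79.7 and 63.5 normalized counts in hypHSC and 5816, 6310.2, 3851, 3388 and 3796 in qHSC, a wide gap (log2 fold change -5.03 ± 0.43 (SE), adjusted p = 4.7e-06). Ano2, the olfactory and retinal channel of the same kind, had 0 in every hypHSC library and 131, 198, 114, 279 and 385 in qHSC, at least 63.9-fold lower (adjusted p = 7.2e-07). It passed the filter through qHSC alone. Ano5, known from muscle, had 2.7, 0, 16.6, 0 and 0 against 61.5, 90.3, 109, 53.9 and 108 (log2 fold change -5.15 ± 0.83 (SE), adjusted p = 0.00041). Ano10 also fell (log2 fold change -1.93 ± 0.62 (SE), adjusted p = 0.023), but lost its call without qHSC 2 (log2 fold changes of -2.24 to -1.38 with each library left out). Ano6, the calcium-activated lipid scramblase, stayed among the most abundant members in both groups, with 3967, 6281, 6585, 5414 and 3461 and 5151, 6335, 5526, 6988 and 5789.7, and was not called (log2 fold change -0.25, adjusted p = 0.33).

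The ClC proteins, chloride channels of the surface and proton exchangers of endosomes and lysosomes, gave 1 call among 6 tested. That call was a rise, and 17.8% of all genes tested were higher. Clcn7, the lysosomal exchanger, had 5789, 8500.5, 9552, 2969 and 1441 normalized counts in hypHSC and 2332, 2483, 1511, 1604 and 1245 in qHSC. The first 3 hypHSC libraries stood well above qHSC and hypHSC 5 did not (log2 fold change 1.37 ± 0.47 (SE), adjusted p = 0.033). This call was lost without any 1 of hypHSC 1, 2 or 3 or qHSC 3, 4 or 5 (adjusted p up to 0.077), and without qHSC 1 and 4 (adjusted p = 0.084). Clcn4, an endosomal exchanger, had 2366, 2489, 2816, 2117 and 1289 against 4430.4, 4924, 3304, 4301 and 4667 and did not overlap, and its log2 fold change of -0.9995 ± 0.22 (adjusted p = 0.0029) fell just short of the threshold in size. It crossed that threshold without hypHSC 1, 2 or 3 or qHSC 3 (log2 fold changes of -1.10 to -0.82 over the 10 fits). Exons of other genes, most of all Gm45631, cover 20.3% of the Clcn4 exon bases. Clcn3 had 269 ± 72.1 in hypHSC and 202 ± 43.2 in qHSC and was not called (log2 fold change 0.40, adjusted p = 0.25).

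Per kilobase of exon, the order of the members differed between the groups. Levels are given here as FPKM (fragments scaled to exon length and to the library's reads on symbol-bearing genes, computed from the recovered reads and GENCODE exon lengths, mean ± SD, n = 5). In qHSC, Kcne4 was far above all others at 126 ± 37.1, followed by Ano1 at 21.8 ± 6.35. Then came Ano6 at 11.9 ± 1.47, Clcn4 at 10.4 ± 1.19, Clcn7 at 10.2 ± 3.1 and Itpr1 at 10 ± 1.45, which did not differ from each other beyond their spread. In hypHSC, Clcn7 stood first at 25.9 ± 17.7, and P2rx4 at 15.8 ± 7.62 and Trpv2 at 15.2 ± 8.9 were within its spread. Ano6 followed at 8.19 ± 2.88, then Kcne4 at 4.52 ± 1.64 and Clcn4 at 4.27 ± 1.49, which could not be ranked against each other. Ano1 had 0.633 ± 0.457 FPKM in hypHSC, Kcnn4 1.85 ± 0.286 and Kcne3 2.32 ± 1.45.

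Of the 6 members that encode no channel protein, 2 were tested and neither was called. Trpc4ap, a ubiquitin ligase adaptor, had 1137 ± 484 normalized counts in hypHSC and 1095 ± 135 in qHSC (log2 fold change -0.11, adjusted p = 0.83). Kcnq1ot1, the long antisense RNA that silences genes beside the imprinted Kcnq1, had 2112, 2146, 3639.9, 3049 and 5416 in hypHSC and 1868, 2049, 1949, 1648 and 1196 in qHSC. The groups did not overlap, but the log2 fold change of 0.84 ± 0.27 (adjusted p = 0.024) was below the size threshold, and it turned to -0.10 with libraries scaled to Hprt, Pgk1 and Actb. With hypHSC at 12 weeks only it was called higher (1.19, adjusted p = 0.0045). Exons of other genes, most of all Kcnq1ot1, cover 23.5% of the Kcnq1 exon bases. Kcnq1 itself was not called (log2 fold change 0.97, adjusted p = 0.597).

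Among the 121 untested members, 27 averaged 10 or more normalized counts in a group. The following genes were picked after their values were seen. Trpc4 had 84.9, 30.02, 123.1, 159 and 6.05 in hypHSC and at most 2.57 in qHSC. Kcnk1, the tandem-pore relative of Kcnk6, had 88.9, 33.1, 23.3, 6.29 and 0 in hypHSC and 0 throughout qHSC. In the other direction, Kcnmb2, a beta subunit of the large-conductance potassium channel, had 0 in every hypHSC library and 38.9, 94.6, 7.87, 40.2 and 41.2 in qHSC. Reads of these genes were spread unevenly over the libraries of a group. Of all 199 members, 64 had at most 3 reads in every library.

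The proteins that work beside the channels, a list of 89 pumps, exchangers, store-operated entry proteins, regulators and other channels, held more rises than falls, except with libraries scaled to Hprt, Pgk1 and Actb, where 12 were higher and 24 lower. Of the 70 tested, 24 were higher in hypHSC (34.3%, against 17.8% of all genes tested), 14 were lower (20%, against 21.7%) and 32 were not called. The median log2 fold change was 0.28, against -0.20 over all genes tested. With the scaling to Hprt, Pgk1 and Actb, 1472 of all 14675 genes tested were higher and 7020 lower. In the main fit, 2 tested genes of the list, Stac2 among them, passed the filter through 1 group only. Without such genes, 22 of 68 were higher (32.4%, against 16.9% of 14241 genes) and 14 were lower (20.6%, against 20.97%). Abcc9, the sulfonylurea receptor subunit of ATP-sensitive potassium channels, had 334, 271, 207, 197 and 109 normalized counts in hypHSC and 28135, 37848, 15557, 19813 and 18074 in qHSC (log2 fold change -6.75 ± 0.32 (SE), adjusted p = 1e-07), the largest fall of the list. The small GTPases Gem (log2 fold change -3.83, adjusted p = 3.6e-07) and Rem1 (log2 fold change -3.92, adjusted p = 0.0016), both inhibitors of voltage-gated calcium channels, fell too. Pkd2, a calcium-permeable channel of cilia and endoplasmic reticulum, fell (log2 fold change -3.21, adjusted p = 3.6e-05), as did the sodium pump subunit gene Atp1b2 (log2 fold change -4.49, adjusted p = 0.0015).

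Among the largest rises of the list was that of Stac2, an adaptor of L-type calcium channels. It had 309.9, 735, 847, 262 and 157 normalized counts in hypHSC, and 1.57 in qHSC 3 and 0 in the other qHSC libraries (adjusted p = 1.3e-06). Stac2 passed the filter through hypHSC alone, so the filter fixed the direction of its change. Slc8a1, the sodium-calcium exchanger, rose from 42.5, 1.7, 13.4, 76.2 and 0 in qHSC to 381, 330.2, 505, 251 and 570.2 in hypHSC (log2 fold change 5.21 ± 1.06 (SE), adjusted p = 0.0019), and the lysosomal cation channel gene Mcoln2 rose as well (log2 fold change 5.83, adjusted p = 5.1e-05). Fxyd6, a regulator of the sodium pump, was called (log2 fold change 4.09, adjusted p = 0.034), but the call was lost when any 1 of 7 libraries was left out, with an adjusted p of up to 0.081, and without qHSC 1 and 4 it was 0.088. The following genes were picked after their values were seen. Of store-operated calcium entry, the endoplasmic reticulum calcium sensor Stim1 fell (log2 fold change -2.82 ± 0.67 (SE), adjusted p = 0.0048), and the pore Orai1 rose (log2 fold change 1.33 ± 0.40 (SE), adjusted p = 0.016). Stim2 (log2 fold change -0.05, adjusted p = 0.92), Orai2 (log2 fold change 0.99, adjusted p = 0.0702), Orai3 (log2 fold change -0.85, adjusted p = 0.076) and the regulator Saraf (log2 fold change -0.67, adjusted p = 0.21) were not called. Ostm1, the obligate partner of Clcn7 in lysosomes, rose (log2 fold change 1.35 ± 0.43 (SE), adjusted p = 0.023), and so did the voltage-gated proton channel gene Hvcn1 of phagocytes (log2 fold change 3.81 ± 0.54 (SE), adjusted p = 0.00016). Of the volume-regulated anion channel, Lrrc8a fell (log2 fold change -1.37, adjusted p = 0.011) and Lrrc8b, Lrrc8c, Lrrc8d and Lrrc8e rose.

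Leaving out qHSC 1 and 4, the qHSC libraries with the highest Kupffer cell marker sums, gave 16 higher and 23 lower members, and leaving out hypHSC 4 and 5 gave 19 and 26. Over all 14630 genes tested, the first gave 2391 higher and 2483 lower and the second 2786 and 3130, against 2602 and 3177 in the main fit. The member counts are therefore not read as a result about channels. Both alternatives were added after the data were seen. For the partner list they gave 18 higher and 13 lower, and 24 higher and 14 lower.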

How the data were processed

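Polyadenylated RNA from 5 hypHSC and 5 qHSC preparations was reverse transcribed from oligo-dT primers with template switching, amplified, and sequenced in pairs without strand information. According to the methods and the labels, the authors mapped reads with STAR 2.7.5a to mm39, counted them per gene with featureCounts (Subread 1.5.0, FAST DB annotation) and deposited counts normalized with DESeq2, a signal in which each library's counts are divided by 1 size factor. Whole reads were recovered from the step between values (100% of values whole in every library, within 0.006). Of the columns of sample values, 0 belonged to other samples.

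The main test was limma 3.58.1 (trended moderation, R 4.3.3) on log2(normalized count + 1) of the 14630 symbol-bearing genes that reached 10 normalized counts in 5 or more of the 10 libraries, with Benjamini-Hochberg adjustment over all of them. The thresholds for a call were 0.05 for the adjusted p and 1 for the size of the log2 fold change. For low genes with libraries at 0, this log2 scale can give larger changes than the count models. Kcnip3 had -3.76 against -2.38 with edgeR, and Kcnj10 3.83 against 1.98 with DESeq2. For Itpr3 it gave a smaller change, 1.06 against 1.33 with DESeq2. The study's own test was DESeq2 on counts, which here was run on recovered reads (DESeq2 1.42.0) beside edgeR 4.0.16. The procedure was run on simulated counts, drawn for both groups from qHSC means with the same spread setting for every gene. That simulation does not cover the spread among the hypHSC libraries or changes in genes near 0 in qHSC. No support for the calls is drawn from it. No 2 libraries of a group agreed within sampling noise. Depth and the 3-read floor cover counting error only.

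The members and lists were chosen with earlier results of these data known. Named members are, per family, the 2 largest rises and falls among called genes with a mean of at least 50 in a group and the 2 with the highest mean, plus all Itpr, Ryr and Piezo genes. Other members given singly lie outside this rule and were chosen with the values known. They include Kcnt2, Kcnu1, Kcnma1, Kcna3, Cacnb1, Cacnb2, Cacna1s, Ano10 and Clcn3. Named partner genes are the 5 largest rises and falls with a mean of at least 100. Some genes that these rules pick are not reported here. Alternatives covered pseudocounts, filters, scalings, other tests, diet length, single libraries left out and the replicate block.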

Additional observations from a re-analysis of the deposited data

Results flagged for a closer look

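In groups of 5, a library was singled out when its gap to the nearest other library exceeded 0.71 of the group's range (Dixon's criterion). Over the named members, 12 of 95 groups met this. The criterion's chance rate of about 1 in 20 assumes normally distributed values. The values here are counts, and some flags rest on a few reads, as for Ryr2 (1.66), Kcne3 (3.62) and Ryr1 (6.30). The 12 flags therefore cannot be compared with that rate, and no excess of outlying libraries is read from them. In hypHSC the high libraries were hypHSC 2 for Kcnq5 (16.56 normalized counts) and Scn3a (40.37), hypHSC 3 for Ano5 (16.63), Hcn3 (16.63) and Ryr2 (1.66), and hypHSC 4 for Trpc1 (51.41) and Kcnk3 (25.18). In qHSC they were qHSC 1 for Kcne3 (3.62), qHSC 2 for Itpr2 (1094.87), qHSC 3 for Ryr1 (6.30), and qHSC 4 for Kcnj2 (11.12) and Kcnk13 (40.22). The qHSC 4 library also had the highest macrophage marker sum of its group (127207), and the part of that in Kcnj2 and Kcnk13 was not tested. Each of these libraries was the highest of its group.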

How the results depend on the processing

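With single libraries left out, 13 to 19 members were higher and 26 to 29 lower, and 21 to 25 partner genes were higher and 13 to 15 lower. Over the 10 such fits, 13 of 16 higher, 25 of 28 lower and 28 of 34 uncalled members held the same call in every fit, and over the 18 other alternatives 9, 21 and 18 did. A mean of at least 100 normalized counts, which leaves 32 members tested, gave 9 higher and 11 lower members. Of the 10792 genes tested with that filter, 2031 were higher and 2351 lower. Scaling to Hprt, Pgk1 and Actb gave 10 higher members, and 12 higher and 24 lower partner genes, with all genes shifted by -0.94. Testing against the fold threshold itself (limma treat) gave 10 higher members, and 12 higher and 8 lower partner genes. Over all 14630 genes tested it gave 1465 higher and 1626 lower. Scaling to the same total shifted the median of all genes by -0.35 and to the same upper quartile by 0.12.

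The log2 fold changes that turned sign all belonged to members not called. Kcnh6 gave -0.039 with the same total and -0.62 with the 3 reference genes, and Kcnq1ot1 -0.10 with the latter. Trpm7 gave 0.10 (upper quartile), 0.037 (TMM), 0.35 (hypHSC at 12 weeks only), 0.15 (edgeR) and 0.16 (DESeq2), and -0.25 to 0.15 with single libraries left out. Kcnj16 gave 0.11, 0.046 and 0.34 under the first 3 of these, 1.91 without qHSC 1 and 4, 0.14 without hypHSC 4 and 5, and -0.55 to 0.83 with single libraries left out. Trpc4ap gave 0.015 (upper quartile), 0.094 (edgeR), 0.089 (DESeq2), 0.39 without hypHSC 4 and 5, and -0.26 to 0.28. Cacnb3 gave 0.55 (edgeR), 0.55 (DESeq2), 1.40 without hypHSC 4 and 5, and -1.21 to 0.59. The causes were not tested.

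With the replicate number as a block, 18 members were higher and 27 lower, with Cacna1d and Trpm2 newly called and Kcnmb1 no longer called (adjusted p = 0.065). Deviations from the group means correlated by 0.066, 0.073, 0.008, 0.062 and 0.129 between libraries of equal number, and 1 of the 5 hypHSC libraries correlated best with its own number, so the numbers were not taken as pairs. At this depth, members below about 3 reads per library could not be compared.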
